A study of Mus musculus with 11 samples.

Results

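The genes described here encode P-TEFb, the super elongation complex and the pausing factors they act on: Cdk9, Ccnt1, Ccnt2, Ell, Ell2, Aff1, Aff4, Eaf1, Supt5 and Nelfe. Each was read from the probe sets that the array annotation gives to that gene alone, of which there were 23, and the brightest over all arrays stood for the gene. These 10 genes are 10 of 18194 genes with such a probe set, and all 10 were among the 13710 genes bright enough to be tested.

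The arrays carried total RNA from the skin of 11 mice, 1 array per mouse. Skin was taken 6 h after 1 mg/kg of ABBV-075 from 4 mice (replicates 1, 2, 3 and 5), 24 h after the same dose from 4 mice (replicates 1 to 4), and after vehicle from 3 mice (replicates 1, 3 and 4). ABBV-075 (mivebresib) inhibits the BET bromodomain proteins, which bind acetylated histones. The labels give no strain, age, sex, genotype or route of dosing, and no collection time for vehicle skin, so that time of collection and treatment cannot be told apart.

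P-TEFb is the kinase pair of Cdk9 with cyclin T1 or T2. It phosphorylates RNA polymerase II and the 2 pausing factors DSIF and NELF, and so releases polymerase that has halted shortly after initiation. Cells hold much of it inactive in the 7SK ribonucleoprotein, through the inhibitor Hexim1. In the super elongation complex, which brings active P-TEFb to genes, an Aff scaffold holds P-TEFb together with an Ell elongation factor and an Eaf protein.

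No member changed after ABBV-075 at either time by limma's test with Benjamini-Hochberg adjustment over 13710 genes, and no other gene did either. Limma array weights give noisy arrays less say. With them Ccnt2 and Aff4 passed at 6 h, at 0.75 and 0.36 above vehicle (limma adjusted p = 0.0419 and 0.0424). In all, 2498 of the 13710 genes passed at 6 h with these weights, so that passing was not particular to the members. These weights ran from 0.270 to 4.85, the highest on the vehicle array of replicate 3. At 6 h the members with the largest differences were the elongation factor Ell2, 1.46-fold above vehicle, the cyclin Ccnt2, 1.43-fold above it, and the cyclin Ccnt1, 1.36-fold above it, while the kinase Cdk9 and the NELF subunit Nelfe lay within 0.020 of vehicle on the log2 scale. At 24 h the differences of Ell2, Ccnt1 and Ccnt2 were smaller, which follows in part from picking the largest at 6 h. Ell and Supt5 lay further above vehicle at 24 h, at 0.34 and 0.30, than at 6 h, at 0.18 and 0.22. These directions depend on how the arrays are scaled. With each array scaled to a common median, 1 of 10 members lay above vehicle at 24 h. Ell2, Ccnt1 and Ccnt2 were below it there, at -0.16, -0.036 and -0.11. The median over all genes was then -0.23, and that of the members -0.14. On the intensities as deposited, which were dimmer on most treated arrays, all 10 members lay below vehicle at both times. The member medians were then -0.51 at 6 h and -0.57 at 24 h, beside -0.68 and -0.62 over all genes. Skin was measured in bulk, so that fewer cells of a type and less RNA per cell cannot be told apart.

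Levels are given as log2(intensity + 16) of quantile-normalized intensities, on which 4 is the floor, and a difference is the treated mean minus the vehicle mean on that scale. The scale understates the change of dim genes, and levels of different probe sets are not compared with each other. Two-sided p-values come from 1 limma fit to the 11 arrays.

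The promoters of the kinase subunits and of Ell2 are printed first, because these genes are the kinase with both its cyclins, and the member with the largest difference from vehicle at 6 h. Each is a 300-base window across the annotated start, most of it before the start, 5′ to 3′ on the gene's own strand, from RefSeq on GRCm38.p6. Capitals mark GGGCGG (the GC box), CCAAT (the CCAAT box) and GACGTCA (the core of the cyclic AMP response element), each on either strand. Where capitals of different matches touch, the run holds both. Ell2 lies at chr13:75707234-75707533 on the plus strand, Ccnt1 at chr15:98567687-98567986 on the minus strand, Ccnt2 at chr1:127773914-127774213 on the plus strand and Cdk9 at chr2:32712735-32713034 on the minus strand.
Ell2: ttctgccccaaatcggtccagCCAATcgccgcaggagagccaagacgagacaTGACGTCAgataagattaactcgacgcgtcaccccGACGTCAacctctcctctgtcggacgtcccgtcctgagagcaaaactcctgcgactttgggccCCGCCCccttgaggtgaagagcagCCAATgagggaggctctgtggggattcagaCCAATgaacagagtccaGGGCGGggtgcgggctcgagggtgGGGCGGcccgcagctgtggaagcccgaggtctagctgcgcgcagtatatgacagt
Ccnt1: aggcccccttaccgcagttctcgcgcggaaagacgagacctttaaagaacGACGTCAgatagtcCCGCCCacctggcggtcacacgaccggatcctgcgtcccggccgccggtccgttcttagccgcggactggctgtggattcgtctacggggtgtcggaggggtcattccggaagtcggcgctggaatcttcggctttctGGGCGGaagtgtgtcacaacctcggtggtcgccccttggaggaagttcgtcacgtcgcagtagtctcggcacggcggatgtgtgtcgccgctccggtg
Ccnt2: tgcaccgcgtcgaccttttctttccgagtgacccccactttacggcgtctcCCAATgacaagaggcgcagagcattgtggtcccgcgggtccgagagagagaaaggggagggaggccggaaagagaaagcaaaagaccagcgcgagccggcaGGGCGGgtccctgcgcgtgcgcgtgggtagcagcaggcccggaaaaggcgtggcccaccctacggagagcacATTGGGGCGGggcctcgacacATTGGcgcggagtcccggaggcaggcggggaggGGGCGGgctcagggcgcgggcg
Cdk9: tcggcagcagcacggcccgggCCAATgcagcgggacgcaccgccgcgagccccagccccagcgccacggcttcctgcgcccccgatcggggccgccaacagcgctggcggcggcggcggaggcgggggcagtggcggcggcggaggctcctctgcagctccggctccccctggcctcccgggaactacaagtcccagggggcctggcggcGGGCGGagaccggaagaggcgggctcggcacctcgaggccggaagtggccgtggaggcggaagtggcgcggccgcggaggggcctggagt

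RefSeq promoters were matched for 9 of the 10 members, all but Nelfe. A GC box was present in 7 of these 9 genes, against 38.2% of 27025 genes with a promoter in the table, and a CCAAT box in 4, against 41.1% of genes. TATAAA, the TATA box, was in none of the 9, against 15.7% of genes. The E box CACGTG was in Aff4 alone among the 9, against 8.09% of genes. GACGTCA was in Ccnt1 and Ell2, against 3.60% of genes, and was searched after these letters had been seen. In Ell2 it counts 3 times, since the palindrome TGACGTCA is a match on both strands. Both promoters also hold the 11-base run GACGTCAGATA, at position 54 from the 5′ end of the window in Ell2 and at position 51 in Ccnt1. That run was picked as the longest that the Ell2 and Ccnt1 windows share on the same strand, so that its rarity is not a result. It is in 5 of 32851 promoters (0.0152%), those of Ell2 and Ccnt1 among them. These matches are letters in the windows, and no binding was measured here.

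Ell2 had the largest 6 h difference from vehicle among the 10 members. It raises the rate of polymerase and is one of 3 Ell paralogues. Its levels were 10.02, 9.91, 10.20 and 10.43 in the 6 h mice, 9.85, 9.85, 9.92 and 9.23 in the 24 h mice and 9.15, 9.78 and 9.84 in the vehicle mice. All 4 mice of the 6 h group were above all 3 of the vehicle group, by a narrow margin, and the 24 h mice overlapped both. The mean was 10.14 ± 0.23 at 6 h (SD, n = 4), 9.71 ± 0.32 at 24 h (SD, n = 4) and 9.59 ± 0.38 in vehicle skin (SD, n = 3). At 6 h the difference was 0.55 ± 0.24 (SE), with a 95% interval of 0.032 to 1.07 and a limma adjusted p = 0.289. At 24 h it was 0.12 ± 0.24 (limma adjusted p = 0.909), and 24 h lay 0.43 ± 0.22 below 6 h (limma adjusted p = 0.594). The vehicle mouse of replicate 1 had the lowest of the 11 levels, and without it the 6 h difference was 0.33. The 24 h mouse of replicate 4 had the next lowest, and without it the 24 h difference from vehicle was 0.28 and that from 6 h was -0.27.

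Ell, the paralogue found first, had levels of 7.57, 7.88, 7.67 and 7.60 at 6 h, 7.72, 7.59, 8.15 and 7.89 at 24 h and 7.29, 7.43 and 7.79 after vehicle. The groups overlapped at both times. The differences were 0.18 ± 0.19 at 6 h (limma adjusted p = 0.660) and 0.34 ± 0.19 at 24 h, where the limma adjusted p of 0.680 was the lowest among the members. The probe set behind these values ends in x_at, the suffix for probes that may also match other transcripts. The other Ell probe set, 1460643_at, pointed the other way, at -0.58 ± 0.50 at 6 h and -0.58 ± 0.50 at 24 h, where its treated mice were all below the vehicle mice, as for 5.57% of all probe sets. Its lowest levels were 4.27 on the 6 h array of replicate 5 and 5.12 on the 24 h array of replicate 2, which also had the lowest actin 5′ to 3′ ratios, and the part of that ratio in its result was not tested. The Ell probe sets thus shared no direction.

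The Ell associated factor Eaf1, which binds Ell proteins, had levels from 8.40 to 8.80 at 6 h, from 8.15 to 8.60 at 24 h and from 8.34 to 8.71 after vehicle. Its differences were 0.093 ± 0.18 at 6 h and -0.13 ± 0.18 at 24 h, within the spread of the vehicle mice.

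Cyclin T1, from Ccnt1, is the partner that carries most Cdk9 in many cells. Its levels were 9.20, 9.38, 9.29 and 9.44 in the 6 h mice, 9.05, 9.57, 8.77 and 9.23 in the 24 h mice and 8.65, 8.99 and 9.02 in the vehicle mice. The 6 h mice lay close together and above all 3 vehicle mice, while the 24 h mice spread across both groups. The mean was 9.33 ± 0.11 at 6 h (SD, n = 4), 9.16 ± 0.33 at 24 h (SD, n = 4) and 8.89 ± 0.21 in vehicle skin (SD, n = 3). The 6 h difference was 0.44 ± 0.20, with a 95% interval of 0.0052 to 0.88 and a limma adjusted p = 0.304. The 24 h difference was 0.27 ± 0.20 (limma adjusted p = 0.744). A dimmer probe set of Ccnt1, 1419313_at, did not share this direction in its means: it lay at -0.16 ± 0.55 at 6 h and at -0.64 ± 0.55 at 24 h, where its treated mice were all below the vehicle mice, as 5.57% of all probe sets were. Its levels were 7.05, 6.14, 6.45 and 4.34 at 6 h, beside 6.21, 6.16 and 6.10 after vehicle. The lowest was on the 6 h array of replicate 5, which also had the lowest actin 5′ to 3′ ratio, and the part of that ratio was not tested.

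Cyclin T2, from Ccnt2, is the alternative partner and was read by 5 probe sets. On the brightest its levels were 9.67, 10.01, 9.25 and 9.13 at 6 h, 9.09, 9.02, 9.20 and 9.51 at 24 h and 8.42, 8.93 and 9.66 after vehicle. The vehicle mice were far apart, so that the groups overlapped. The 6 h difference was 0.51 ± 0.30 (limma adjusted p = 0.421), and it was 0.22 without the vehicle mouse of replicate 1 and 0.84 without that of replicate 4. The difference was 0.20 ± 0.30 at 24 h (limma adjusted p = 0.876). A dimmer Ccnt2 probe set, 1427088_at, varied less, with levels of 7.56, 7.74, 7.39 and 7.79 at 6 h, 7.28, 7.32, 7.16 and 7.54 at 24 h and 6.91, 6.98 and 6.98 after vehicle. There the 8 treated mice were all above the 3 vehicle mice. It differed by 0.66 ± 0.17 at 6 h (limma adjusted p = 0.158 in a fit to 24895 probe sets) and by 0.37 ± 0.17 at 24 h (limma adjusted p = 0.615 in the same fit). That fit was chosen after the data were seen. In it, 9.60% of all probe sets lay wholly above vehicle at 6 h and 5.41% at 24 h. Of the other Ccnt2 probe sets, 1427089_at differed by 0.46 and 1452297_at by 0.29 at 6 h, and 1435445_at by -0.019.

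The kinase itself, Cdk9, had levels of 9.78, 9.71, 9.55 and 9.08 at 6 h, 9.41, 9.23, 9.68 and 9.81 at 24 h and 9.66, 9.42 and 9.56 after vehicle. The vehicle mice sat within the range of each treated group. Its difference was -0.020 ± 0.21 at 6 h, with a 95% interval of -0.48 to 0.44, and -0.017 ± 0.21 at 24 h, with an interval of -0.48 to 0.44. Changes inside these intervals were not detectable with these arrays. The 6 h array of replicate 5 held the lowest Cdk9 level of the 11, and without it the 6 h difference was 0.13. That array also had the lowest actin 5′ to 3′ ratio, whose part in the result was not tested.

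**Figure D1:**
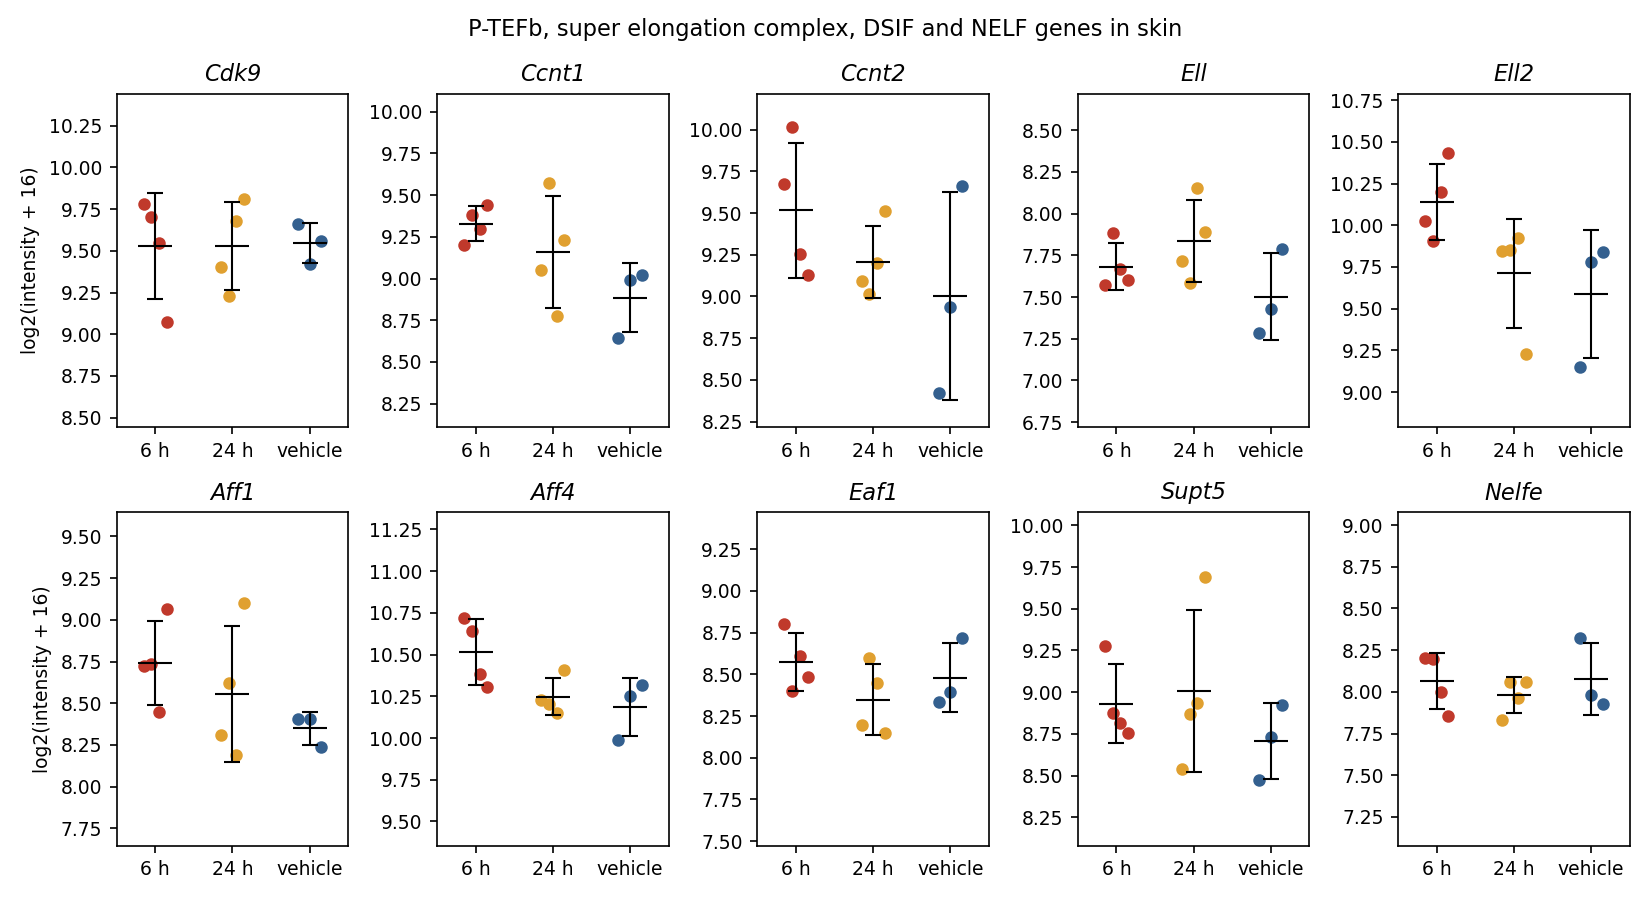
Level of each member on every array, as log2(intensity + 16) of the quantile-normalized brightest probe set, by group (6 h, 24 h, vehicle). Points are mice, and bars are group means with their SD; Ell2, Ccnt1 and Aff1 are the members whose 6 h points all lie above the vehicle points.

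Aff1 and Aff4 are the scaffolds of the super elongation complex. Aff1 had levels of 8.72, 8.74, 8.44 and 9.06 at 6 h, 8.31, 8.62, 8.19 and 9.10 at 24 h and 8.41, 8.41 and 8.24 after vehicle. The 6 h mice were all above the vehicle mice, the lowest of them barely so. The differences were 0.39 ± 0.23 at 6 h (limma adjusted p = 0.426) and 0.21 ± 0.23 at 24 h (limma adjusted p = 0.837). The 24 h value was 0.023 without the 24 h mouse of replicate 4, which had the highest Aff1 level of all. A dimmer Aff1 probe set, 1425641_at, differed by 0.40 ± 0.20 at 6 h and by 0.37 ± 0.20 at 24 h, where the treated mice were all above the vehicle mice, as for 5.41% of all probe sets.

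Aff4 had levels of 10.72, 10.64, 10.38 and 10.31 at 6 h, 10.23, 10.21, 10.15 and 10.40 at 24 h and 9.99, 10.25 and 10.32 after vehicle. At 6 h 1 mouse, replicate 5, was inside the vehicle range and the other 3 were above it. The differences were 0.33 ± 0.17 at 6 h (limma adjusted p = 0.359) and 0.060 ± 0.17 at 24 h (limma adjusted p = 0.938). Its dimmer probe sets 1420912_at and 1458959_at differed at 6 h by 0.47 ± 0.18 and 0.45 ± 0.27. The 3 probe sets of Aff4 thus shared their direction at 6 h.

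The pausing factors are the substrates of the kinase. Supt5, the large subunit of DSIF, had levels of 9.28, 8.87, 8.81 and 8.75 at 6 h, 8.54, 8.87, 8.94 and 9.69 at 24 h and 8.47, 8.73 and 8.92 after vehicle. The groups overlapped, and 1 mouse, replicate 4 of the 24 h group, stood highest. Its differences were 0.22 ± 0.26 at 6 h and 0.30 ± 0.26 at 24 h, the second of which was 0.073 without that mouse. Nelfe, the RNA-binding subunit of NELF, ranged from 7.86 to 8.21 at 6 h, from 7.83 to 8.06 at 24 h and from 7.93 to 8.32 after vehicle. Its differences were -0.012 ± 0.17 at 6 h and -0.098 ± 0.17 at 24 h, and its residual SD of 0.163 was the lowest among the members.

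At 6 h, 8 of the 10 members lay above vehicle, where 50.4% of all genes tested did. Ccnt1 and Ell2 had an unadjusted limma p under 0.05 in the higher direction, as did 8.02% of all genes, and no member did in the lower direction, against 8.05%. The 6 h mice did not overlap the vehicle mice for Ccnt1, Ell2 and Aff1, all higher, against 9.77% of genes, and for no member lower, against 8.77%. Without the vehicle mouse of replicate 4, which leaves 2 vehicle mice, 8 members lay wholly above vehicle, against 13.2% of genes. That mouse had the highest member median of the vehicle group. Leaving out any other single array gave 3 members, or 4 without the 6 h mouse of replicate 5, against 9.77% to 14.5% of genes. Without the 3 arrays of low actin ratio 6 members lay wholly above vehicle, against 23.1%. The median member difference was 0.27, beside 0.0037 for all genes tested. It was 0.17 without the vehicle mouse of replicate 1, and no member then had an unadjusted p under 0.05. Without the 6 h mouse of replicate 3 no member had one either, and leaving out any other single array left 1 or 2. Without the 3 arrays of low actin ratio, which leaves 2 mice at 6 h, all 10 members lay above vehicle, and Ccnt2 and Aff4 were those with an unadjusted p under 0.05.

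At 24 h, 7 of the 10 members lay above vehicle, against 47.6% of genes. That count was 1 of 10 with arrays scaled to a common median and 5 of 10 with the mean of each gene's probe sets. None had an unadjusted limma p under 0.05 (3.16% of genes did in the higher direction and 4.47% in the lower), and for none did the groups separate (5.09% of genes higher, 6.02% lower). The median member difference was 0.16, beside -0.020 for all genes. It was -0.14 with median scaling, where all genes shifted by -0.23, 0.0083 with the mean of probe sets and 0.018 with array weights. It was 0.033 without the vehicle mouse of replicate 1 and 0.048 without the 24 h mouse of replicate 4. Between the times, 24 h minus 6 h, 3 of 10 members lay above 0, against 47.4% of genes, and the member median was -0.18, beside -0.019 for all genes (-0.073 without the 24 h mouse of replicate 3 and -0.36 with median scaling). No member had an unadjusted limma p under 0.05 (3.76% of genes higher, 5.51% lower) or separated groups (1.92% of genes higher, 3.54% lower). Both treated groups were set against the same 3 vehicle mice, and both differences from vehicle share them.

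**Figure D2:**
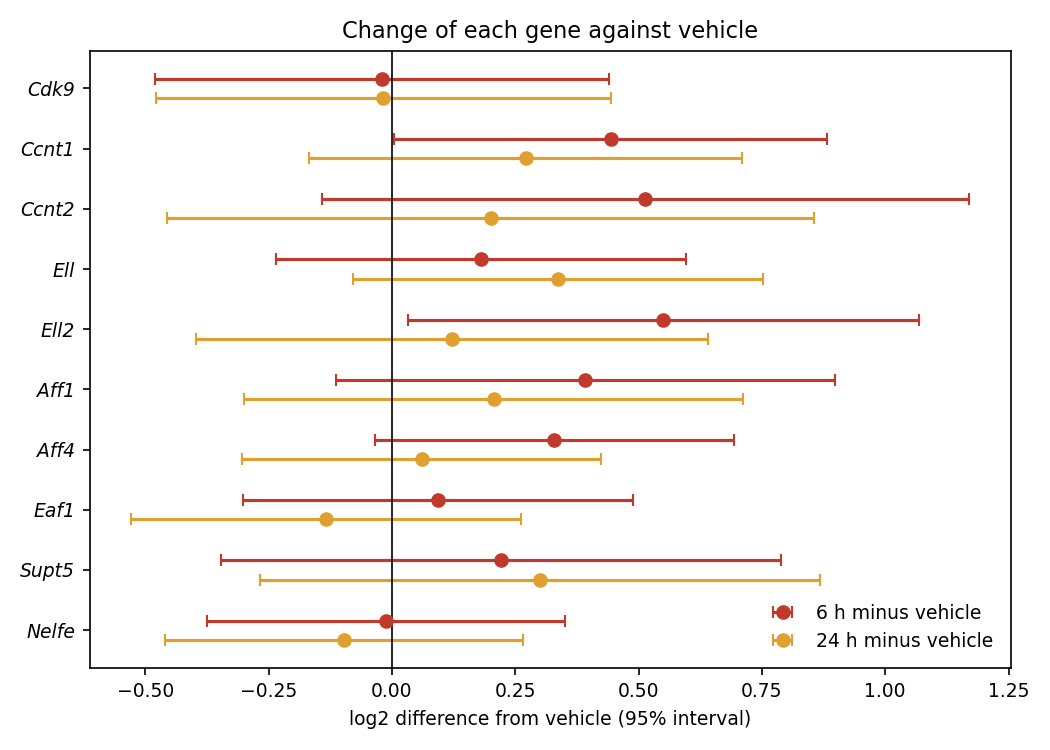
Difference in log2 level of each member from vehicle at 6 h and at 24 h, with limma's 95% confidence intervals. At 6 h the intervals of Ell2 and Ccnt1 are the ones that exclude 0 before adjustment; none is called after adjustment over 13710 genes.

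The median residual SD between mice of a group was 0.249 for the members, beside 0.344 for all genes tested. Half-widths of the members' 95% intervals against vehicle ran from 0.363 for Nelfe to 0.656 for Ccnt2. The 11 dimmer member probe sets above the brightness filter pointed the same way as the main one in 8 cases at 6 h and in 7 at 24 h. The exceptions at 6 h were the dimmer probe sets of Ccnt1 and Ell and 1435445_at of Ccnt2.

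**Figure D3:**
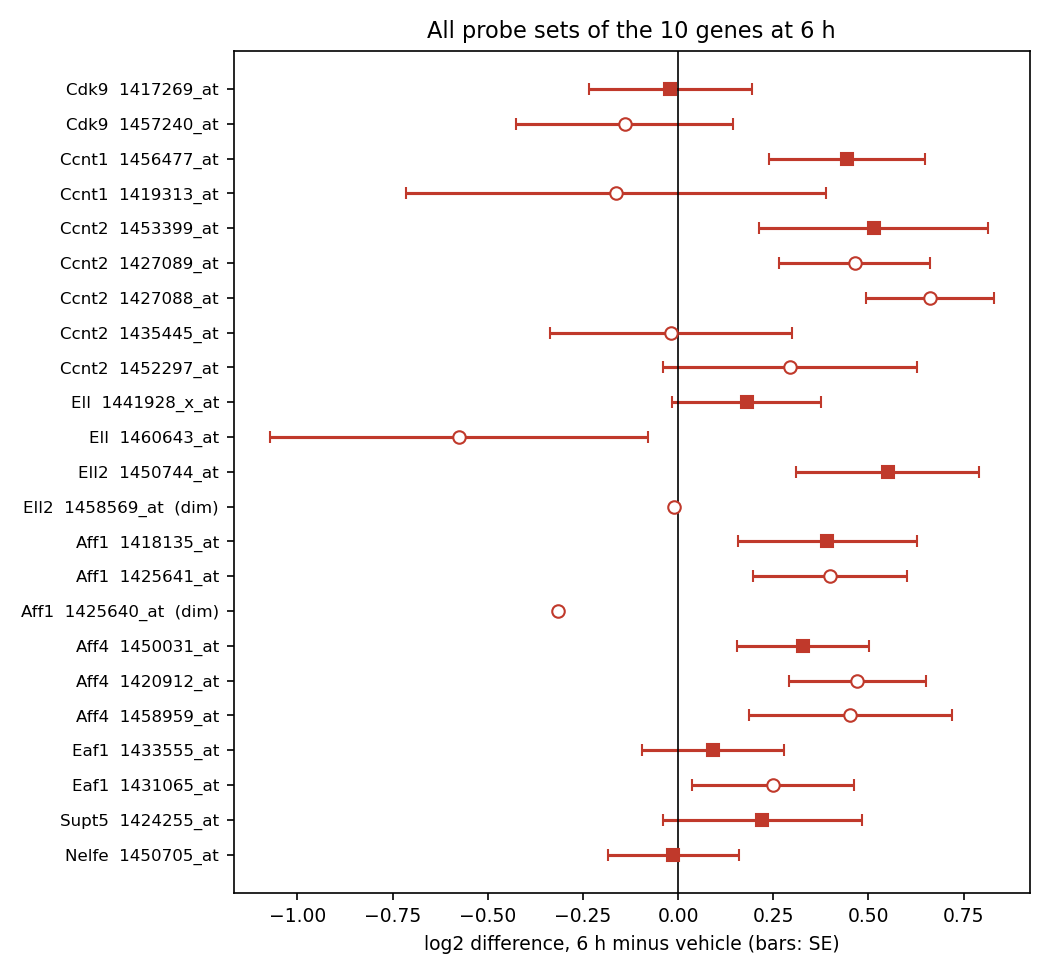
Difference in log2 level, 6 h minus vehicle, of each member probe set, with SE bars. Squares are main probe sets and open circles the others; those marked dim were below the filter and have no SE. The Aff4 probe sets lie above 0 together, while those of Ell and Ccnt1 fall on both sides.

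Paralogues were compared by the difference of their changes, with exact two-sided permutation tests over mice for 3 pairs in 3 contrasts. Ell2 was 0.37 further above vehicle than Ell at 6 h (exact permutation p = 0.171, adjusted 0.771 over 9 tests). From 6 h to 24 h Ell2 differed from Ell by -0.58 (exact permutation p = 0.0857, adjusted 0.771). Ccnt1 and Ccnt2 differed by -0.070 at 6 h and Aff1 and Aff4 by 0.063, both at an adjusted exact p of 0.857. The smallest p these designs allow is 0.0286 against vehicle and 0.0143 between the times, so that a raw p under 0.05 was possible but did not occur. After adjustment over 9 tests a single pair in 1 contrast could not have passed 0.05, since that would take several tests near the smallest p at once.

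The arrays were not alike in cell markers or RNA quality, and the values that differed along with the members are these. Defining markers of epidermis and dermis (Krt5, Krt14, Krt1, Krt10, Col1a1 and Col3a1) were at or above the 96.4th percentile on every array. The median member level relative to the vehicle mean was 0.35, 0.35, 0.15 and 0.11 in the 6 h mice, 0.00056, 0.10, 0.049 and 0.31 in the 24 h mice and -0.21, -0.023 and 0.17 in the vehicle mice, each in order of replicate number. The summed intensity of 10 basal keratinocyte markers was 35083, 29872, 16274 and 14017 at 6 h, 18608, 19303, 14043 and 49384 at 24 h and 10664, 17763 and 20765 after vehicle. The mice with the highest member medians, replicates 1 and 2 at 6 h and replicate 4 at 24 h, were also the 3 with the highest basal keratinocyte sums, and the vehicle mouse with the lowest member median had the lowest such sum. The match was not particular to basal keratinocytes. The same 3 mice had the lowest macrophage sums (9595, 12449 and 3527), adipocyte sums (23945, 19395 and 12305) and endothelial sums (682, 520 and 479). The vehicle mouse with the lowest member median had the highest macrophage sum, 34396, and the highest endothelial sum, 1627. Suprabasal keratinocyte sums ranked the mice this way only in part: they were 54911, 49544, 40819 and 40246 at 6 h, 47681, 32086, 40379 and 44035 at 24 h and 39643, 43656 and 44901 after vehicle. All 10 basal keratinocyte markers lay above vehicle at both times, with medians of 0.48 and 0.58, and 0 of them passed the test. All 8 fibroblast, all 7 measured adipocyte and all 8 macrophage markers lay below vehicle at both times, with 0 passing. Endothelial markers lay below it in 6 of 6 at 6 h and 5 of 6 at 24 h. Suprabasal keratinocyte markers lay above it in 6 of 8 at 6 h and 4 of 8 at 24 h, skeletal muscle markers in 2 of 7 and 6 of 7, and the tested hair shaft markers in 0 of 4 and 1 of 4, none passing. The part of cell makeup in the members' values was not tested.

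The actin 5′ to 3′ intensity ratio, which is low where the RNA is shortened, was 0.425, 0.377, 0.284 and 0.0725 at 6 h, 0.529, 0.198, 0.475 and 0.423 at 24 h and 0.484, 0.593 and 0.565 after vehicle. The actin ratio was thus lower in all 6 h mice than in all vehicle mice. The Gapdh 5′ to 3′ ratio overlapped between them: it was 0.684, 0.697, 0.711 and 0.104 at 6 h, 1.08, 0.804, 0.945 and 0.945 at 24 h and 0.888, 0.911 and 0.698 after vehicle. With the actin ratio as a covariate no member was called either, and at 6 h Cdk9 stood at 0.34 ± 0.23, Ccnt2 at 0.92 ± 0.37 and Aff4 at 0.52 ± 0.20 (limma adjusted p = 0.559, 0.384 and 0.378). Ell then stood at 0.35, Supt5 at 0.36, Ccnt1 at 0.19 and Aff1 at 0.15. The trimmed mean of the deposited intensities ran from 82.8 to 244 at 6 h, from 116 to 183 at 24 h and from 205 to 244 after vehicle. On these values without normalization the member medians were -0.51 at 6 h and -0.57 at 24 h, beside shifts of all genes by -0.68 and -0.62.

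**Figure D4:**
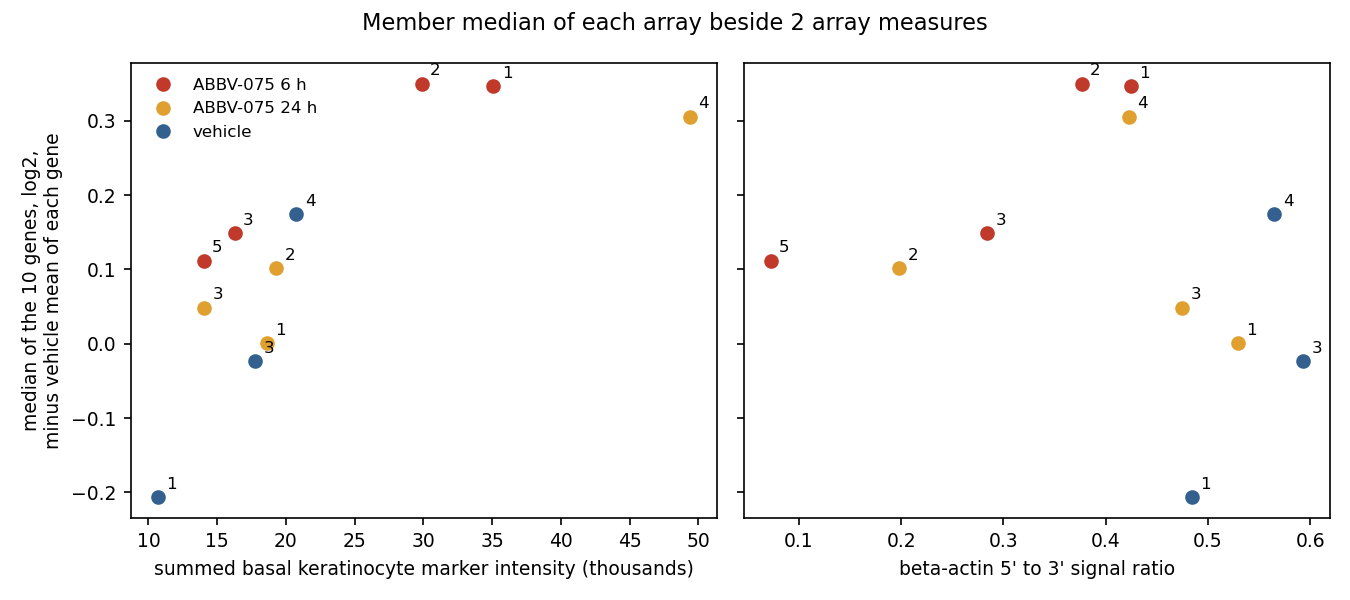
Median level of the 10 members on each array, relative to the vehicle mean, set against the summed intensity of basal keratinocyte markers and against the actin 5′ to 3′ ratio. Points are mice; the 3 with the largest basal keratinocyte sums have the largest member medians.

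Of 33 further elongation genes in 6 lists, 31 had a probe set of their own and 30 were bright enough to be tested. None passed the test in any contrast. At 6 h 20 of the 30 lay above vehicle, against 50.4% of all genes, with a median of 0.23. At 24 h 16 did, against 47.6%, with a median of 0.0065. At an unadjusted p under 0.05, 7 were higher and 2 lower at 6 h, where 8.02% and 8.05% of all genes were. At 24 h 1 was higher and 0 were lower, where 3.16% and 4.47% of all genes were.

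The PAF complex, which travels with elongating polymerase, lay above vehicle for 5 of 6 genes at 6 h, with a median of 0.48. Rtf1, a subunit that promotes histone H2B ubiquitination, had levels of 8.40, 8.24, 8.10 and 8.11 at 6 h, 7.75, 7.84, 7.80 and 8.02 at 24 h and 7.59, 7.82 and 7.62 after vehicle. The 6 h mice were above all mice of both other groups. Over all genes, 9.77% lay wholly above vehicle at 6 h, and 3.54% were wholly lower at 24 h than at 6 h. Rtf1 was named for its small p in this list, so that its separation follows in part from the choice. Rtf1 differed by 0.54 ± 0.15 at 6 h (limma adjusted p = 0.173), and Wdr61, the older symbol of Skic8, by 0.49 ± 0.15 (limma adjusted p = 0.188). At 24 h they stood at 0.18 and 0.25, and between the times Ctr9, the scaffold of the complex, was 0.43 lower at 24 h (limma adjusted p = 0.437).

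All 3 tested genes of the 7SK ribonucleoprotein lay above vehicle at 6 h. Hexim1 had levels of 10.14, 9.98, 9.94 and 9.54 at 6 h, 8.72, 8.86, 8.86 and 8.78 at 24 h and 8.93, 8.70 and 8.77 after vehicle. Its 6 h difference of 1.10 ± 0.17 had a limma adjusted p of 0.0638 and missed the threshold. No gene had a lower adjusted p, but genes of smaller unadjusted p shared this value, and Hexim1 ranked 7 by unadjusted p. Mepce, the 7SK capping enzyme, differed by 0.43 ± 0.19 and the 7SK-binding Larp7 by 0.46 ± 0.22 at 6 h. At 24 h Hexim1 stood at 0.0062, Mepce at -0.23 and Larp7 at 0.14.

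Of the other DSIF, NELF and Spt6 genes, 1 of 4 lay above vehicle at 6 h, with a median of -0.16. The NELF subunits Nelfa and Nelfb stood at -0.30 ± 0.26 (0.014 without the vehicle mouse of replicate 4) and -0.14 ± 0.17, and at 24 h the histone chaperone Supt6 stood at -0.19 and Nelfcd at -0.085. Among the other super elongation complex subunits, 3 of 5 lay above vehicle at 6 h. Mllt1, a reader of acylated histones, had 5.43, 4.74, 4.04 and 4.00 at 6 h, 5.93, 5.39, 4.89 and 6.56 at 24 h and 5.99, 5.76 and 6.13 after vehicle. The 6 h mice were below all vehicle mice, as for 8.77% of all genes, with 1 mouse at the floor and another next to it. Mllt1 was named for its small p in this list, and its difference of -1.41 ± 0.41 did not pass (limma adjusted p = 0.181). Aff2 stood at 0.53 ± 0.19 and 0.49 ± 0.19 at the 2 times, Mllt3 at 0.51 ± 0.37 at 24 h, and Eaf2 stood at -1.12 from 6 h to 24 h (limma adjusted p = 0.414). Eaf2 had 5.43, 5.03, 5.34 and 6.92 at 6 h, 5.24, 4.25, 4.00 and 4.75 at 24 h and 5.20, 5.16 and 4.47 after vehicle. Its highest level was on the 6 h array of replicate 5, without which the difference between the times was -0.70, and 1 mouse at 24 h was at the floor.

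The other kinases of the polymerase tail lay above vehicle for 4 of 6 genes at 6 h, with a median of 0.064. Cdk13 stood at 0.32 ± 0.17, while Ccnk, the cyclin of Cdk12 and Cdk13, stood at -0.52 ± 0.35 at 6 h (-0.30 without the mouse of replicate 5) and -0.70 ± 0.35 at 24 h. Cdk7, the TFIIH kinase, stood at -0.22 at 24 h. In the little elongation complex and TFIIS list, 4 of 6 lay above vehicle at 6 h, among them Zc3h8 at 0.58 ± 0.24 and the transcript cleavage factor Tcea1 at 0.44 ± 0.21. Ice2 stood at 0.36 ± 0.17 and Tcea2 at -0.44 ± 0.41 at 24 h, and Tcea3 was 0.33 higher at 24 h than at 6 h. Tcea2 lay near the floor, from 4.29 to 5.44 at 24 h and from 4.17 to 5.85 after vehicle. Its 24 h value was -0.088 without the vehicle mouse of replicate 1 and -0.93 without that of replicate 4.

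**Figure D5:**
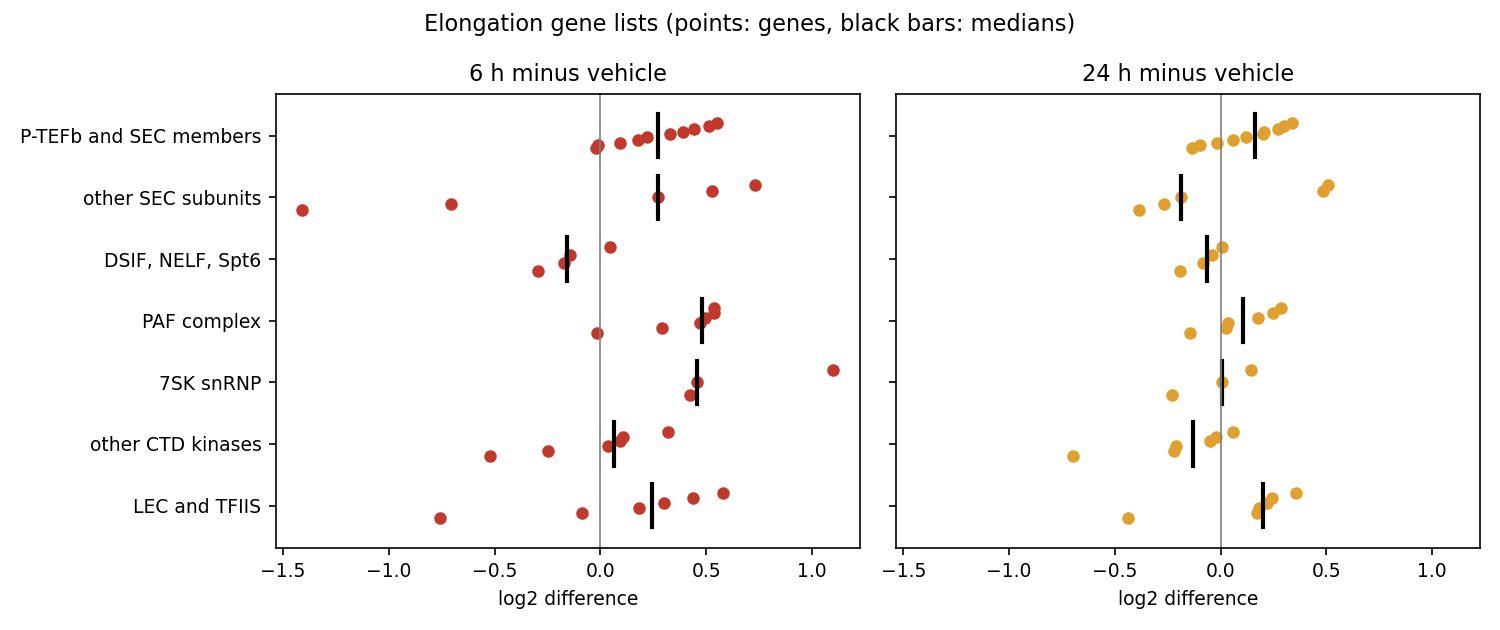
Difference in log2 level from vehicle at 6 h and at 24 h for the members and for the 6 lists of other elongation genes. Points are genes and bars are list medians; the PAF and 7SK lists have the highest medians at 6 h, and no gene passed the test.

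Genes whose levels were most like those of 3 members over the 11 mice were found by the smallest root mean square difference after each gene was centred on its own mean. For Cdk9 these were Parp2 at 0.0865, Mrps17 at 0.105 and Tsc22d4 at 0.106, where the median over all genes was 0.415. For Ccnt1 they were Atp6v0a2 at 0.116, D230025D16Rik at 0.117 and Suco at 0.119, beside a median of 0.435. For Ell2 they were Homer1 at 0.118, Sec24a at 0.130 and Yes1 at 0.132, beside a median of 0.488. These genes were picked for this likeness, so that their group differences follow from the choice. The arrays differed in cell markers and RNA quality, and the part of these in the likeness was not tested.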

How the data were processed

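Skin RNA was labelled with the Affymetrix 3′ IVT Plus kit, per the labels' protocols. The authors deposited 1 linear intensity per probe set and array for 45101 probe sets, of which 34958 had 1 gene, 932 several and 9211 no name here. The software and scaling were not given in the sources used here. Values below 0 made up 12.9% to 16.6% of an array.

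Intensities were quantile-normalized, set to at least 0 and taken as log2(intensity + 16). The brightest probe set stood for each gene, and genes above the 40th percentile on at least 3 arrays were kept. A mean per group was fitted to the 11 arrays at once with lmFit and eBayes of limma 3.58.1 (R 4.3.3), without covariates and with Benjamini-Hochberg adjustment over 13710 genes at 0.05. The fit was checked on simulated data. The number of arrays limits the precision, and arrays are separate mice, so the spread is between mice.

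The members and gene lists were chosen with earlier results of these data known. Named genes were the 10 members, the 2 of smallest p in each list and contrast, and the 3 most alike for Cdk9, Ccnt1 and Ell2. Dimmer probe sets outside this rule are named after their values were seen. Alternatives were other normalizations, pseudocounts, filters, probe set rules, weights, covariates, left-out arrays and a replicate block. Same-numbered vehicle and 24 h mice deviated together (r = 0.25, 0.13 and 0.21 over genes). Unlike-numbered mice of these groups ran from -0.35 (24 h replicate 1 with vehicle replicate 4) to 0.21 (24 h replicate 2 with vehicle replicate 4). Shared numbers are thus not shown to mark a pairing, and the labels do not say what a number marks. The block was run as if they did. Same-numbered 24 h and 6 h mice did not deviate together (-0.064, -0.35 and 0.17), nor did same-numbered 6 h and vehicle mice (-0.12 and -0.074). Promoter letters came from RefSeq on GRCm38.p6.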

Additional observations from a re-analysis of the deposited data

Results flagged for a closer look

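The Ell2 level of the 24 h mouse of replicate 4, 9.23, stood far below the other 3 mice of its group, which lay at 9.85, 9.85 and 9.92. Its gap to the nearest of them as a share of the group's range exceeded Dixon's 95% critical value. It was 1 flag in 20 checks of a member in a group of 4, and chance flags about 1 in 20. The same mouse had the highest basal keratinocyte sum, 49384, and the lowest macrophage sum, 3527, of the 11. The part of these in its Ell2 level was not tested.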

How the results depend on the processing

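No member passed the threshold in any contrast under the alternatives run, except with array weights. There Ccnt2 and Aff4 passed at 6 h and made the count 2. These weights also called many other genes at 6 h, as counted below, so that passing was not particular to the members. The highest weight, 4.85, was on the vehicle array of replicate 3. Over all members, contrasts and alternatives, 649 member values kept their direction and their side of the threshold, 2 kept it and passed, and 69 turned; the causes were not tested.

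On the intensities as deposited, the shift of all genes was -0.68 at 6 h and -0.62 at 24 h, the member medians were -0.51 and -0.57, and 855 genes (2 higher, 853 lower) and 6 genes were called. Relative to that shift, the member medians were 0.17 and 0.052. At 6 h Ccnt1 was then -0.34, Ccnt2 -0.28, Ell -0.61, Ell2 -0.19, Aff1 -0.41, Aff4 -0.42, Eaf1 -0.73 and Supt5 -0.59. At 24 h Ccnt1 was -0.47, Ccnt2 -0.54, Ell -0.33, Ell2 -0.60, Aff1 -0.54, Aff4 -0.68 and Supt5 -0.45, and Nelfe from 6 h to 24 h was 0.026. With median scaling, where all genes shifted by -0.23 at 24 h, the member median was -0.14 at 24 h and -0.36 between the times. Ccnt1 at 24 h was then -0.036, Ccnt2 -0.11, Ell2 -0.16, Aff1 -0.12, Aff4 -0.24 and Supt5 -0.026, Eaf1 at 6 h was -0.075, and between the times Cdk9 was -0.19 and Supt5 -0.090. Cyclic loess put Aff4 at 24 h at -0.0017.

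Without the brightness filter 18 genes were called at 6 h and 1 at 24 h. With the mean of a gene's probe sets, 7 were called at 6 h and 2 between the times, the 24 h member median was 0.0083, Ell was -0.20 at 6 h and -0.12 at 24 h, and Ccnt1 was -0.18 at 24 h. Without x_at and s_at probe sets 1 gene was called between the times, and Ell was -0.58 at 6 h, -0.58 at 24 h and -0.0071 between the times. Array weights called 2498 genes at 6 h, 59 at 24 h and 423 between the times. They put Cdk9 at 0.18, 0.013 and -0.17 in the 3 contrasts, Nelfe at 0.15 at 6 h, Aff1 at -0.0046 and Aff4 at -0.030 at 24 h, and Supt5 at -0.16 between the times. With the actin ratio as covariate 1 gene was called between the times, Cdk9 was 0.34, 0.18 and -0.16, and Nelfe 0.020 at 6 h. Without the 3 arrays of low actin ratio, chosen after the data were seen, Cdk9 was 0.20, 0.084 and -0.11, Nelfe 0.12 at 6 h and Supt5 -0.020 between the times.

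With the replicate number as a block, 0 members were called in each contrast and 1 gene at 6 h, so that the block changed no member's call. The block put Cdk9 at 0.24, 0.038 and -0.21, Nelfe at 0.013 at 6 h and Supt5 at -0.14 between the times.

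Leaving out each array in turn called 0 members each time, and 0 to 23 genes at 6 h (23 without the 24 h mouse of replicate 4), 0 to 1 at 24 h and 0 to 7 between the times (7 without the 6 h mouse of replicate 5). The member median ran from 0.17 to 0.33 at 6 h, from 0.033 to 0.20 at 24 h and from -0.23 to -0.073 between the times. Single members whose sign turned were Cdk9 (-0.10 to 0.13, -0.11 to 0.084 and -0.15 to 0.10 in the 3 contrasts), Nelfe (-0.087 to 0.11 at 6 h, -0.17 to 0.026 at 24 h), Ccnt2 (-0.092 to 0.53), Ell2 (-0.098 to 0.28) and Aff4 (-0.038 to 0.13) at 24 h, and Supt5 (-0.15 to 0.23) between the times.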
